A study of Homo sapiens with 24 samples.

Results

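The genes of glucose uptake, glycolysis, lactate and pyruvate handling and the pentose phosphate pathway were followed in SW1783 cells treated with extracts of Schisandrae Fructus. They are the 32 rows of the expected-count table whose Ensembl identifiers belong to a fixed list of symbols, out of 60675 genes in the table, 19586 of them protein-coding. The list holds 2 glucose transporters, 15 glycolytic enzymes, 6 genes of lactate and pyruvate handling, 3 enzymes that set the level of fructose 2,6-bisphosphate and 6 enzymes of the pentose phosphate pathway and NADPH supply. All 32 passed the filter on low counts in every comparison.

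SW1783 is an established human astrocytoma line, so the libraries show 1 cell line and no normal astrocytes. RNA was sequenced after 24 h in 24 libraries, 3 for each of 8 groups, and nothing in the labels says whether the 3 were separate cultures, so p-values measure the spread between these libraries only. Batch A held the hot water extract (WESF) at 500 (high), 100 (medium) and 20 µg/mL (low) with its own vehicle, and batch B held the 70% ethanol extract (EESF) at 310 (high), 62 (medium) and 12.4 µg/mL (low) with its own vehicle. Both vehicles were 0.1% DMSO. According to the methods, a screen found no toxicity for WESF at its high dose, and the high dose of EESF was set at a partly inhibitory concentration. The cells were grown in Leibovitz's L-15 with added fetal bovine serum. The basal medium supplies galactose and pyruvate in place of glucose, and the methods do not give the glucose content of the complete medium. Library totals ran from 18727797 to 32567395 expected counts.

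Several markers of the labelled cell type were close to 0. Of 11 astrocyte and glioma markers, VIM was the most abundant at 4531 to 5406 CPM (read counts brought to a common library size with TMM factors), while the medians of GFAP, S100B, AQP4, SLC1A2, ALDH1L1 and OLIG2 over the 24 libraries were 0.167, 0.059, 0, 0.209, 0.0166 and 0.0819 CPM. Of the others, CD44 went from 2836 ± 112 to 1722 ± 27.3 CPM (SD, n = 3) with WESF at its high dose and from 2896 ± 105 to 2077 ± 63.1 CPM with EESF, SOX9 from 81.7 ± 4.43 to 50.7 ± 0.713 and from 86.1 ± 6.7 to 48.7 ± 3.09 CPM, and SLC1A3 from 31.8 ± 1.67 to 10.4 ± 0.635 and from 31.8 ± 1.04 to 12.1 ± 0.85 CPM. The level of NES was also lower in every library at both high doses, from 7.29 ± 0.854 to 3.17 ± 0.799 and from 6.74 ± 0.858 to 4.93 ± 0.313 CPM. VIM was level with WESF, at 4821 ± 49.7 and 4796 ± 102 CPM. With EESF VIM was higher, at 5279 ± 192 against 4922 ± 16.7 CPM. Among the scarce markers, mean OLIG2 went up from 0.0501 to 0.472 CPM with WESF and from 0.0716 to 0.34 CPM with EESF. Mean GFAP also went up, from 0.149 to 0.268 and from 0.0358 to 0.289 CPM. Mean SLC1A2 went down, from 0.401 to 0.115 and from 0.233 to 0.0435 CPM. Most of the detected markers of other cell types were lower at both high doses. The summed level of the 3 neuronal markers was 51.4, 53.6 and 55.5 CPM in vehicle A against 23.0, 24.2 and 21.9 CPM at the high dose of WESF, and 55.5, 55.5 and 57.1 CPM in vehicle B against 28.8, 23.9 and 25.2 CPM at the high dose of EESF. SNAP25 and SYT1 carried nearly all of it, while the third, RBFOX3, was higher, at 0.112 ± 0.0378 and 0.709 ± 0.163 CPM for vehicle A and WESF and 0.138 ± 0.0757 and 0.563 ± 0.182 CPM for vehicle B and EESF. Of the 4 epithelial markers, KRT18 was the most abundant, and their sum was 150.1, 135.1 and 133.1 CPM in vehicle A against 62.1, 66.7 and 63.3 CPM with WESF, and 136.0, 132.9 and 125.9 CPM in vehicle B against 80.5, 100.6 and 96.6 CPM with EESF. KRT8, the other epithelial marker above 1 CPM, was not lower, at 15.3 ± 1.93 and 17.6 ± 0.196 CPM for vehicle A and WESF and 15.9 ± 0.582 and 19.7 ± 0.875 CPM for vehicle B and EESF. EPCAM was at 0 in 15 libraries and CDH1 in 12. PTPRC, the only one of the 3 leukocyte markers above 1 CPM, went from 10.2 ± 0.621 to 2.12 ± 0.18 CPM with WESF and from 9.81 ± 0.823 to 1.88 ± 0.342 with EESF, and AIF1 was at 0 in 23 libraries. MBP, an oligodendrocyte marker, went the other way, from 6.8 ± 0.628 to 12.6 ± 1.27 CPM with WESF and from 6.59 ± 0.257 to 9.66 ± 0.24 with EESF, with MOG at 0 in all 24. The endothelial pair stayed under 1.5 CPM in every library. The part of these marker genes in the results below was not tested.

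Glycolysis turns a glucose molecule into pyruvate through a fixed order of enzymes. Most steps are carried out by several isozymes encoded by separate genes, of which some are expressed in nearly every cell and others are confined to certain tissues or are induced, for instance by low oxygen. Pyruvate then enters the mitochondria through pyruvate dehydrogenase, which the PDK kinases switch off, or is reduced to lactate by lactate dehydrogenase and exported by monocarboxylate carriers. The pentose phosphate pathway branches off at glucose 6-phosphate and yields NADPH and ribose. Astrocytes are known for taking up glucose and releasing lactate.

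HK2, ENO2 and ALDOC, which had the largest rises among the 32 with WESF, each encode the less abundant isozyme of its step in these cells. Their promoters are shown because these are the genes that passed the fold threshold. The bases before the RefSeq start site (GRCh38.p14) are given 5′ to 3′ on the strand of the gene, for HK2 at chr2:74833877-74834126 (+), for ENO2 at chr12:6914330-6914579 (+) and for ALDOC at chr17:28576896-28577145 (-), and capitals mark matches to the motifs below.
HK2: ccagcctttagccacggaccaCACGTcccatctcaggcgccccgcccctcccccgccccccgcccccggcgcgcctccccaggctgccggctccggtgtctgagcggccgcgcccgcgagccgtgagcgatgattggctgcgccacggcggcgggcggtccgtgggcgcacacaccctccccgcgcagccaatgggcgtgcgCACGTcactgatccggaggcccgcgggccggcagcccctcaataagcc
ENO2: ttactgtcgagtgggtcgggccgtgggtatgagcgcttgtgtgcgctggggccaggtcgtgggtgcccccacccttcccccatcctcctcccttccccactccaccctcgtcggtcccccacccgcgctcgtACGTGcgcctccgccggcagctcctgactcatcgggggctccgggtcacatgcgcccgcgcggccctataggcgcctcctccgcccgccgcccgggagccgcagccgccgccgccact
ALDOC: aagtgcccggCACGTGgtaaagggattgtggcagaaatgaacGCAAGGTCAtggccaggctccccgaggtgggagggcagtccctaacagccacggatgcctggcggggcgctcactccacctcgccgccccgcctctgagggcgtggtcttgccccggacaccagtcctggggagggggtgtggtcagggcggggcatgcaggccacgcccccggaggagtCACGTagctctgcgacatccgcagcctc
The windows were 76.8%, 74.0% and 68.4% G or C. Other annotated transcripts of ENO2 and ALDOC start upstream of the RefSeq start, the ENO2 gene spanning chr12:6913745-6923698 and the ALDOC gene chr17:28573115-28576948, while the HK2 gene, at chr2:74834127-74893359, starts right after its window.

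Motifs were searched on both strands from 250 bases before to 50 after the start. RefSeq promoters were found for 29 of the 32 genes (SLC2A3, SLC16A1 and PFKFB2 had no entry), and 35116 promoters were searched in all. The full set was not limited to protein-coding genes or to a single promoter per gene, so it differs in kind from the 29. The hypoxia response core ACGTG was present in 10 of the 29 (34.5%) and in 21.4% of all promoters. It occurred in HK2 (first base at -229 and at -48 from the start site, on the reverse strand), ENO2 (at -118) and ALDOC (at -240 and -28 on the reverse strand and at -239 on the forward strand) and also in GPI, ALDOA, GAPDH, PGK1, LDHA, PDK3 and PGD. The E-box CACGTG, which contains ACGTG, was in ALDOC, GAPDH and LDHA (10.3% against 7.26%). The antioxidant response core TGACNNNGC was in 6 of 29 (20.7% against 13.3%), with 1 match in ALDOC at -208 on the reverse strand, and TATAAA in 3 of 29 (10.3% against 11.5%). The median G and C content was 70.0% over the 29 and 58.7% over all promoters. These matches are letters in a window and do not show binding.

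In the vehicle libraries, levels were compared per kilobase of exon. GAPDH stood first at 1724 CPM per kb (mean of 6 vehicle libraries), followed by ENO1 at 515, ALDOA at 414, PKM at 400.5 and LDHA at 302 CPM per kb. The order ended with PDK1 at 1.81, PFKFB2 at 1.46 and PDK3 at 0.787 CPM per kb. Of the 31 pairs of neighbours in this order, 11 overlapped between libraries and were not separated, among them ALDOA and PKM, LDHA and TPI1, TKT and HK1, and HK2 and RPIA. The 3 isozymes above were scarce beside their partners. HK2 stood at 9.54 and HK1 at 49.6 CPM per kb, ENO2 at 15.1 and ALDOC at 2.74 CPM per kb. Among the phosphofructokinase subunits PFKP stood at 23.5, PFKL at 15 and PFKM at 5.45 CPM per kb, and of the glucose transporters SLC2A1 stood at 29.9 and SLC2A3 at 4.96 CPM per kb. With the longest coding transcript in place of all exons, GAPDH and ENO1 stayed first and second and PDK3 last. Other genes changed places, such as ALDOA and PKM, PGK1 and LDHB, and PFKL, which went from rank 21 to 18. Of the 32 levels, 30 moved by at least their SD over the vehicle libraries. HK2 then stood at 10 and HK1 at 85.3, ENO2 at 22.9 and ENO1 at 1507.8 CPM per kb. The ratios between isozymes given below use all exons, and their size depends on that choice.

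At the high dose of WESF, several abundant glycolytic enzymes (GAPDH, ENO1, ALDOA, PKM, TPI1 and PGAM1) fell, PGK1 did not pass, and HK2, ENO2, ALDOC, PFKP, both glucose transporters, SLC16A1 and PDK1 were among the genes that rose. Of the 32 genes, 12 rose and 14 fell at an adjusted p under 0.05 (edgeR's quasi-likelihood test with Benjamini-Hochberg adjustment), against 34.3% of the 13129 genes tested that rose and 34.6% that fell, and 26 in either direction against 68.9%. HK2, ENO2 and ALDOC passed the 1.5-fold threshold as differentially expressed genes (DEGs), 3 of 32 where 24.1% of all genes tested were DEGs. Their median log2 fold change was -0.035, beside 0.001 for all genes tested. Leaving out a single library or using the replicate number as a block lost the calls of ALDOA, LDHB, SLC16A3, PGD and PGLS, and the other 21 calls held in every alternative tried. RNA came from whole cultures, so fewer cells that express a gene and less of its RNA per cell cannot be told apart.

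EESF at its high dose gave fewer calls than WESF among the 32, as it did among all genes tested. Of the 32, 11 rose and 10 fell, against 29.3% and 28.7% of the 13092 genes tested, and 21 in either direction against 58%. ENO2 and ALDOC were DEGs, 2 of 32 against 17.4%, and HK2 rose by less than the threshold. The median was -0.034, beside 0.007 for all genes tested. The calls of HK1, PDK1, PGLS and RPIA were lost in at least 1 alternative, and 17 held in every alternative tried.

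**Figure D1:**
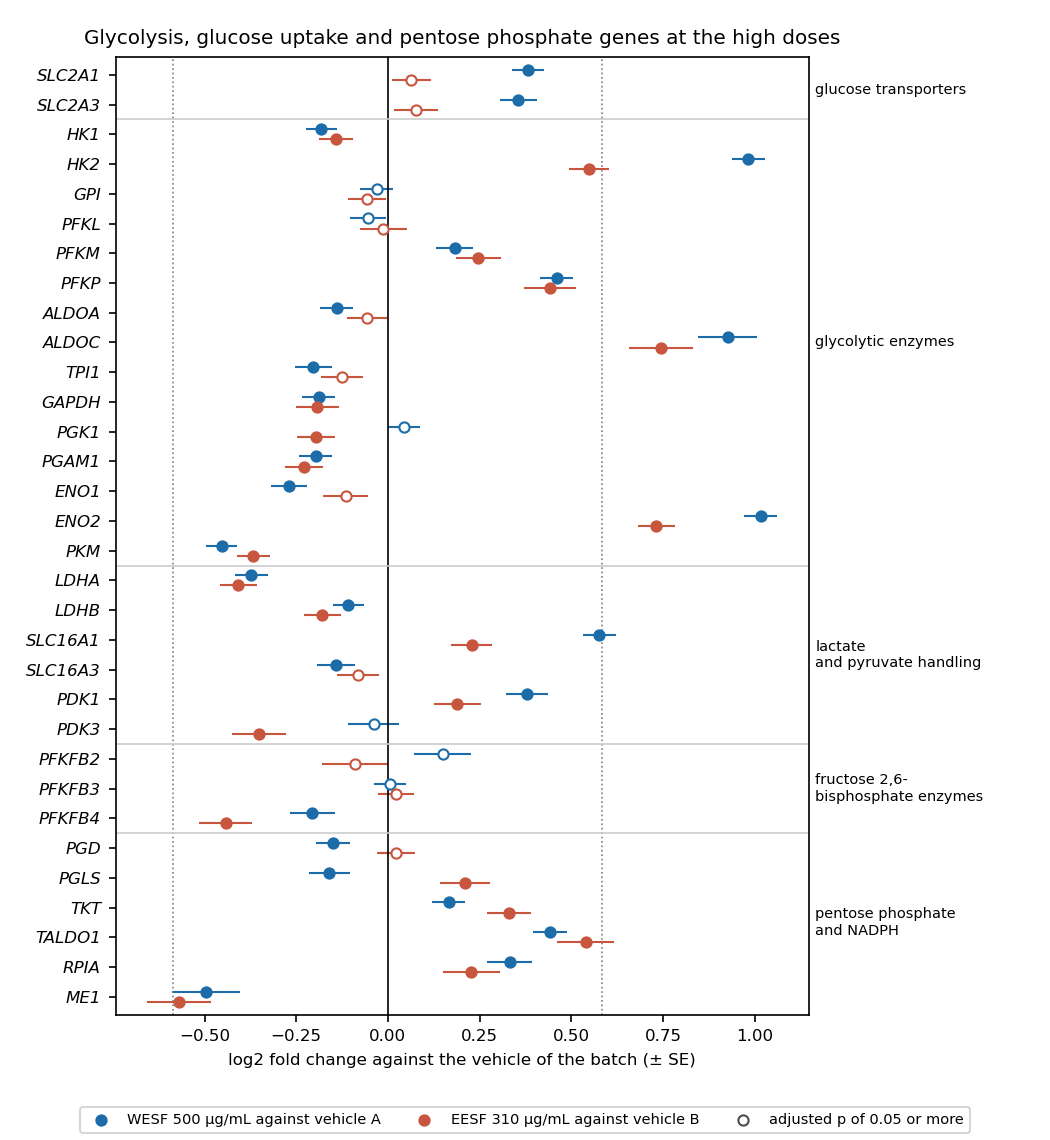
Log2 fold change (± SE, horizontal axis) of each of the 32 genes (rows, grouped by role) at the high dose of WESF (blue) and of EESF (red) against the vehicle of its batch, with 3 libraries per group; filled points have an adjusted p under 0.05 and dotted lines mark a 1.5-fold change. With WESF, HK2, ENO2 and ALDOC stand to the right of the other genes, and with EESF HK2 (0.549) lies beside TALDO1 (0.539); PKM, LDHA and ME1 stand to the left of 0 with both.

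Glucose enters the cell through SLC2A1 (GLUT1) and SLC2A3 (GLUT3, a high-affinity carrier). With WESF both rose at the high dose. SLC2A1 was at 200.1, 194.5 and 186.1 CPM in vehicle A and at 259.4, 251.7 and 246.3 CPM at 500 µg/mL, a log2 fold change of 0.38 ± 0.0435 (SE; edgeR adjusted p = 6.18e-07), with no overlap between the groups. SLC2A3 rose by 0.36 ± 0.0508 on the log2 scale. With EESF at 310 µg/mL, the log2 fold changes were 0.06 ± 0.0523 and 0.08 ± 0.0607, and neither passed the test.

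Hexokinase traps glucose in the cell as glucose 6-phosphate, and HK2 is its inducible isozyme. HK2 was at 57.0, 56.2 and 57.6 CPM in vehicle A, at 56.7, 59.6 and 59.9 CPM at 20 µg/mL, at 63.9, 66.2 and 66.9 CPM at 100 µg/mL and at 113.3, 115.6 and 108.9 CPM at 500 µg/mL of WESF. The medium and high doses lay above vehicle A in every library, with log2 fold changes of 0.20 ± 0.0432 (edgeR adjusted p = 0.0191) and 0.98 ± 0.0446 (adjusted p = 7.58e-12). The call at the medium dose was lost with the replicate block and in 3 of the 6 fits that left out a library (adjusted p up to 0.126). HK2 was at 53.5, 56.6 and 58.1 CPM in vehicle B, at 47.8, 46.7 and 51.8 CPM at 12.4 µg/mL, at 54.6, 55.5 and 53.4 CPM at 62 µg/mL and at 84.5, 81.0 and 80.6 CPM at 310 µg/mL of EESF. The low dose lay below the vehicle (log2 fold change -0.21 ± 0.0536, adjusted p = 0.0259, lost in 4 of 6 left-out fits), the medium dose overlapped with it, and the high dose lay above it (0.55 ± 0.0549, adjusted p = 4.42e-06). HK1, the ubiquitous isozyme, fell at both high doses, by 0.18 ± 0.0423 and 0.14 ± 0.0461 on the log2 scale. Per kilobase, HK2 went from 19.1 ± 0.4 (SD, n = 3) per 100 of HK1 in vehicle A to 42.9 ± 0.302 with WESF, and from 19.4 ± 1.03 in vehicle B to 31.3 ± 0.978 with EESF.

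Enolase forms phosphoenolpyruvate, and ENO2 encodes its neuronal (gamma) form. ENO2 was at 64.4, 62.0 and 64.5 CPM in vehicle A, at 70.5, 66.7 and 67.9 CPM at the low, at 74.3, 77.7 and 73.9 CPM at the medium and at 132.6, 125.2 and 128.1 CPM at the high dose of WESF. Each dose lay above the vehicle in all 3 libraries, and the medium and high doses passed the test, with log2 fold changes of 0.24 ± 0.0439 (edgeR adjusted p = 0.00894) and 1.02 ± 0.0449 (adjusted p = 5.66e-12), the former lost in 3 of 6 left-out fits. In batch B ENO2 was at 66.5, 66.2 and 64.9 CPM in the vehicle, at 67.1, 72.6 and 70.9 CPM at the low, at 80.5, 80.3 and 74.1 CPM at the medium and at 111.7, 105.3 and 111.2 CPM at the high dose of EESF. Here too no treated library fell among those of the vehicle, and the medium and high doses passed with 0.25 ± 0.0488 (adjusted p = 0.00343) and 0.73 ± 0.0509 (adjusted p = 2.51e-07). ENO1, the ubiquitous form, fell by 0.27 ± 0.0498 on the log2 scale with WESF, and its log2 fold change with EESF, -0.12 ± 0.0616, did not pass. ENO2 went from 2.83 ± 0.149 to 6.9 ± 0.402 per 100 of ENO1 per kilobase with WESF, and from 3.06 ± 0.163 to 5.51 ± 0.508 with EESF.

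Aldolase splits fructose 1,6-bisphosphate, and ALDOC is its brain isozyme, often used as a marker of astrocytes. ALDOC was at 7.74, 7.02 and 7.56 CPM in vehicle A, at 8.61, 7.36 and 7.58 CPM at the low, at 9.76, 9.94 and 10.1 CPM at the medium and at 14.4, 13.7 and 14.3 CPM at the high dose of WESF. The low dose overlapped with the vehicle, and the 2 higher doses did not, with log2 fold changes of 0.42 ± 0.0816 (edgeR adjusted p = 0.0135) and 0.93 ± 0.0803 (adjusted p = 2.29e-08), of which the medium dose was lost in 3 of 6 left-out fits. In batch B it was at 6.5, 7.01 and 7.15 CPM in the vehicle, at 8.0, 7.61 and 9.05 CPM at the low, at 9.62, 10.5 and 9.05 CPM at the medium and at 11.1, 11.7 and 11.7 CPM at the high dose of EESF. All treated libraries lay above the vehicle, and the medium (0.50 ± 0.0966, adjusted p = 0.00336) and high doses (0.74 ± 0.0868, adjusted p = 1.53e-05) passed. ALDOA, the isozyme of muscle and most other tissues, fell by 0.14 ± 0.0447 on the log2 scale with WESF. Its log2 fold change with EESF, -0.057 ± 0.0542, did not pass. Even at the high doses ALDOC was a small part of the aldolase RNA, at 1.43 ± 0.0582 per 100 of ALDOA per kilobase with WESF, from 0.683 ± 0.0148, and 1.12 ± 0.0248 with EESF, from 0.645 ± 0.0612.

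**Figure D2:**
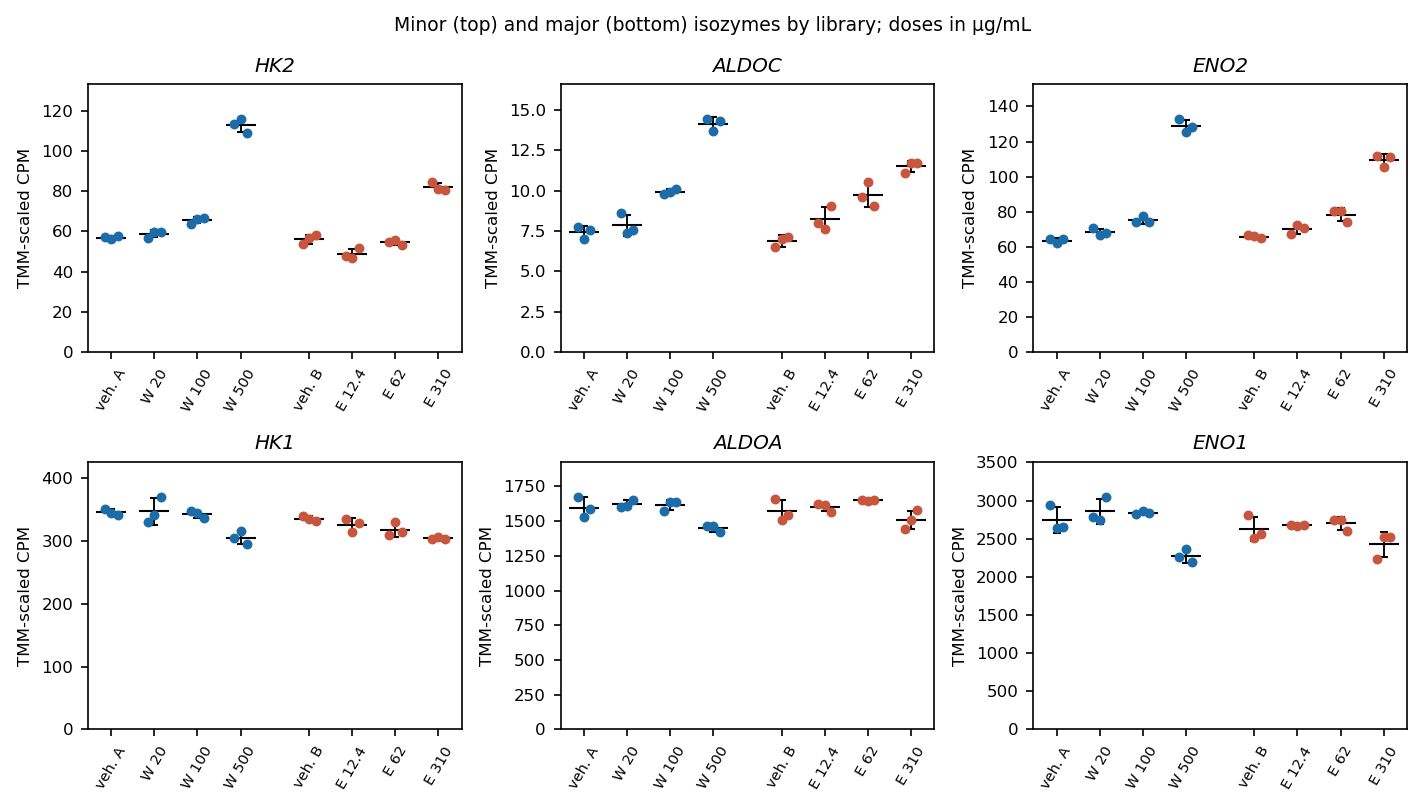
TMM-scaled CPM (vertical axes, from 0) of the less abundant isozymes HK2, ALDOC and ENO2 (top) and of HK1, ALDOA and ENO1 (bottom) in each library (points) with the group mean and SD (black), over both vehicles, WESF (W, blue) and EESF (E, red), doses in µg/mL. The top genes stand highest at the high dose of each extract, with HK2 at 112.6 CPM for WESF and 82.0 for EESF on average, while the bottom genes are level or lower there.

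Phosphofructokinase commits the sugar to glycolysis and is built from a liver (PFKL), a muscle (PFKM) and a platelet (PFKP) subunit. PFKP was at 196.5, 188.1 and 176.4 CPM in vehicle A, at 184.1, 195.8 and 205.5 CPM at the low, at 206.4, 218.2 and 218.3 CPM at the medium and at 259.1, 259.2 and 253.7 CPM at the high dose of WESF. The medium and high doses lay above the vehicle, with log2 fold changes of 0.20 ± 0.0464 (edgeR adjusted p = 0.0323) and 0.46 ± 0.0453 (adjusted p = 1.11e-07). With the replicate block and in 4 of the 6 left-out fits (adjusted p up to 0.164) the medium dose did not pass. In batch B PFKP was at 191.2, 181.2 and 161.7 CPM in the vehicle, at 184.4, 169.3 and 177.2 CPM at the low, at 186.5, 191.9 and 186.5 CPM at the medium and at 222.0, 253.5 and 250.1 CPM at the high dose of EESF. Here the high dose alone passed (0.44 ± 0.0697, adjusted p = 0.000168), and the lower doses overlapped with the vehicle. PFKM rose by 0.18 ± 0.0513 with WESF and 0.25 ± 0.0625 with EESF on the log2 scale, and PFKL, at -0.05 ± 0.0498 and -0.01 ± 0.0644, did not pass with either.

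The other glycolytic enzymes fell or did not pass. PKM, pyruvate kinase, which makes the pyruvate, fell by 0.45 ± 0.0423 on the log2 scale with WESF, from 3405 ± 47.8 to 2489.5 ± 47.5 CPM, and by 0.37 ± 0.0456 with EESF. GAPDH, which oxidises glyceraldehyde 3-phosphate and often serves as a reference gene in qPCR, fell by 0.19 with both extracts (SE 0.0447 and 0.0597). It was at 4349, 4101 and 4053 CPM in vehicle A and 3687, 3714 and 3573 CPM in cells given the most WESF, and at 4277, 4030.4 and 3975 CPM in vehicle B and 3279.8, 3691 and 3778 CPM at the high dose of EESF. Its groups did not overlap in either batch, and replicate 1 of EESF was the lowest library. The methods name GAPDH as the reference of the qPCR in the same study. PGAM1, phosphoglycerate mutase, fell by 0.20 ± 0.0459 and 0.23 ± 0.051 on the log2 scale, and TPI1, triosephosphate isomerase, fell by 0.20 ± 0.0495 with WESF and was at -0.125 ± 0.0581 with EESF, which did not pass. PGK1, the first step that yields ATP, was at 0.045 ± 0.0437 with WESF and fell by 0.20 ± 0.0505 with EESF. GPI, which turns glucose 6-phosphate into fructose 6-phosphate, did not pass with either extract. Of the 15 glycolytic enzymes, 5 rose and 7 fell with WESF (median log2 fold change -0.054) and 5 rose and 5 fell with EESF (median -0.057), where 34.3% and 34.6% of all genes tested rose and fell with WESF and 29.3% and 28.7% with EESF. Their levels summed to 15213.8 ± 584 CPM in vehicle A and 13194 ± 271 CPM at the high dose of WESF, and to 15045 ± 597 CPM in vehicle B and 13352 ± 545 CPM at the high dose of EESF.

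Of the 6 genes of lactate and pyruvate handling, 2 rose and 3 fell with each extract at the high dose, with median log2 fold changes of -0.074 for WESF and -0.13 for EESF, beside 68.9% and 58% of all genes tested that passed in either direction. LDHA, the subunit of lactate dehydrogenase that favours lactate formation, was at 1883, 1785 and 1746 CPM in vehicle A and 1366, 1393 and 1428 CPM at the high dose of WESF (log2 fold change -0.37 ± 0.0443), and it fell by 0.41 ± 0.0498 on the log2 scale with EESF. LDHB fell less, by 0.11 ± 0.0416 and 0.18 ± 0.0501, and LDHA went from 310.2 ± 4.05 to 258.4 ± 6.77 per 100 of LDHB per kilobase with WESF, and from 328.3 ± 7.07 to 280.0 ± 2.29 with EESF. SLC16A1 (MCT1), a carrier of lactate and pyruvate, was at 134.2, 138.6 and 141.8 CPM in vehicle A and 209.0, 212.3 and 197.4 CPM at the high dose of WESF, a log2 fold change of 0.58 ± 0.045 that lies just under the DEG threshold of 0.585. It rose by 0.23 ± 0.0559 with EESF. SLC16A3 (MCT4), the main lactate exporter of glycolytic cells, fell by 0.14 ± 0.051 with WESF and did not pass with EESF. PDK1, a kinase that inactivates pyruvate dehydrogenase, rose by 0.38 ± 0.0573 and 0.19 ± 0.0636. PDK3, which does the same, fell by 0.35 ± 0.0743 with EESF, from 13.8 ± 0.102 to 10.8 ± 0.484 CPM, and was at -0.04 ± 0.0695 with WESF.

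Fructose 2,6-bisphosphate is the strongest activator of phosphofructokinase, and the bifunctional PFKFB enzymes make and break it. PFKFB4 fell at both high doses, by 0.21 ± 0.0606 with WESF and 0.44 ± 0.0718 with EESF on the log2 scale. PFKFB3, at 0.005 ± 0.0442 and 0.02 ± 0.0484, and PFKFB2, at 0.15 ± 0.0774 and -0.09 ± 0.0902, did not pass with either extract.

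Of the 6 genes of the pentose phosphate pathway and NADPH supply, 3 rose and 3 fell with WESF and 4 rose and 1 fell with EESF, with median log2 fold changes of 0.008 and 0.218, beside the same 68.9% and 58% of all genes. The 3 non-oxidative enzymes rose with both. TALDO1, transaldolase, rose by 0.44 ± 0.0463 with WESF, from 90.0 ± 4.69 to 122.2 ± 1.38 CPM, and by 0.54 ± 0.0782 with EESF, from 88.2 ± 5.8 to 128.2 ± 13.9 CPM. RPIA, which makes ribose 5-phosphate, rose by 0.33 ± 0.0616 and 0.23 ± 0.0774 on the log2 scale. TKT, transketolase, was at 509.4, 493.0 and 472.9 CPM in vehicle A, at 488.3, 515.9 and 523.4 CPM at the low, at 541.0, 566.1 and 543.9 CPM at the medium and at 552.3, 576.1 and 527.4 CPM at the high dose of WESF. The 2 higher doses lay above the vehicle by similar amounts, with log2 fold changes of 0.16 ± 0.0414 (edgeR adjusted p = 0.0442) and 0.17 ± 0.0455 (adjusted p = 0.00389). The call at the medium dose was lost in 5 of the 6 fits that left out a library (adjusted p up to 0.204), with all genes of the table and with the replicate block. In batch B TKT was at 494.8, 486.4 and 470.7 CPM in the vehicle, at 493.0, 485.1 and 489.9 CPM at the low, at 513.9, 521.4 and 509.5 CPM at the medium and at 557.8, 639.9 and 627.8 CPM at the high dose of EESF. The high dose passed (0.33 ± 0.0591, adjusted p = 0.000436), and replicate 1 was lower than the other 2 libraries of that group, as it was for TALDO1, PFKP and PGLS.

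PGLS, PGD and ME1 fell with WESF at its high dose, and with EESF they did not share a direction. PGLS, 6-phosphogluconolactonase, was at 47.6, 46.6 and 43.1 CPM in vehicle A, at 48.2, 47.8 and 49.9 CPM at the low, at 49.9, 50.8 and 52.5 CPM at the medium and at 41.6, 38.5 and 42.7 CPM at the high dose of WESF. The high dose lay below the vehicle (log2 fold change -0.16 ± 0.0554, edgeR adjusted p = 0.0169) although both lower doses lay above it without passing the test. In batch B PGLS was at 47.2, 46.6 and 43.4 CPM in the vehicle, at 52.4, 53.3 and 52.7 CPM at the low, at 53.9, 53.0 and 52.4 CPM at the medium and at 48.1, 53.8 and 56.8 CPM at the high dose of EESF. All 9 treated libraries lay above the vehicle, by 0.20 ± 0.0474 (adjusted p = 0.0206), 0.22 ± 0.0508 (adjusted p = 0.00971) and 0.21 ± 0.0692 (adjusted p = 0.0199) on the log2 scale from the low to the high dose. With a library left out, the call at the low dose was lost in 5 of 6 fits and that at the high dose in 4 of 6, the latter also with the replicate block. PGD, 6-phosphogluconate dehydrogenase, fell by 0.15 ± 0.0464 with WESF and was at 0.02 ± 0.0528 with EESF. ME1, cytosolic malic enzyme, which makes NADPH outside the pathway, fell by 0.50 ± 0.0923 with WESF, from 12.1 ± 0.935 to 8.61 ± 0.799 CPM, and by 0.57 ± 0.0868 with EESF, from 12.1 ± 0.79 to 8.12 ± 0.363 CPM.

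Falls were more frequent among the abundant genes of the 32 and rises among the scarce ones. Of the upper 16 genes by level per kilobase in the vehicles, 3 rose and 11 fell at the high dose of WESF, and of the lower 16, 9 rose and 3 fell. For EESF, 2 of the upper 16 rose and 7 fell, and 9 of the lower 16 rose and 3 fell. Of all genes tested, 34.3% rose and 34.6% fell with WESF and 29.3% and 28.7% with EESF. The median log2 fold changes of the upper and lower 16 were -0.146 and 0.257 with WESF and -0.12 and 0.2 with EESF. Across the 32 genes, level and log2 fold change had a Pearson r of -0.44 (Spearman rho -0.481) with WESF and -0.271 (rho -0.313) with EESF, where all genes tested gave -0.048 (rho -0.01) and -0.029 (rho 0.011). These correlations describe genes that share libraries, which are not independent, and carry no test. The falls among the lower 16 were those of PFKFB4, ME1 and PGLS with WESF and of PFKFB4, ME1 and PDK3 with EESF.

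**Figure D3:**
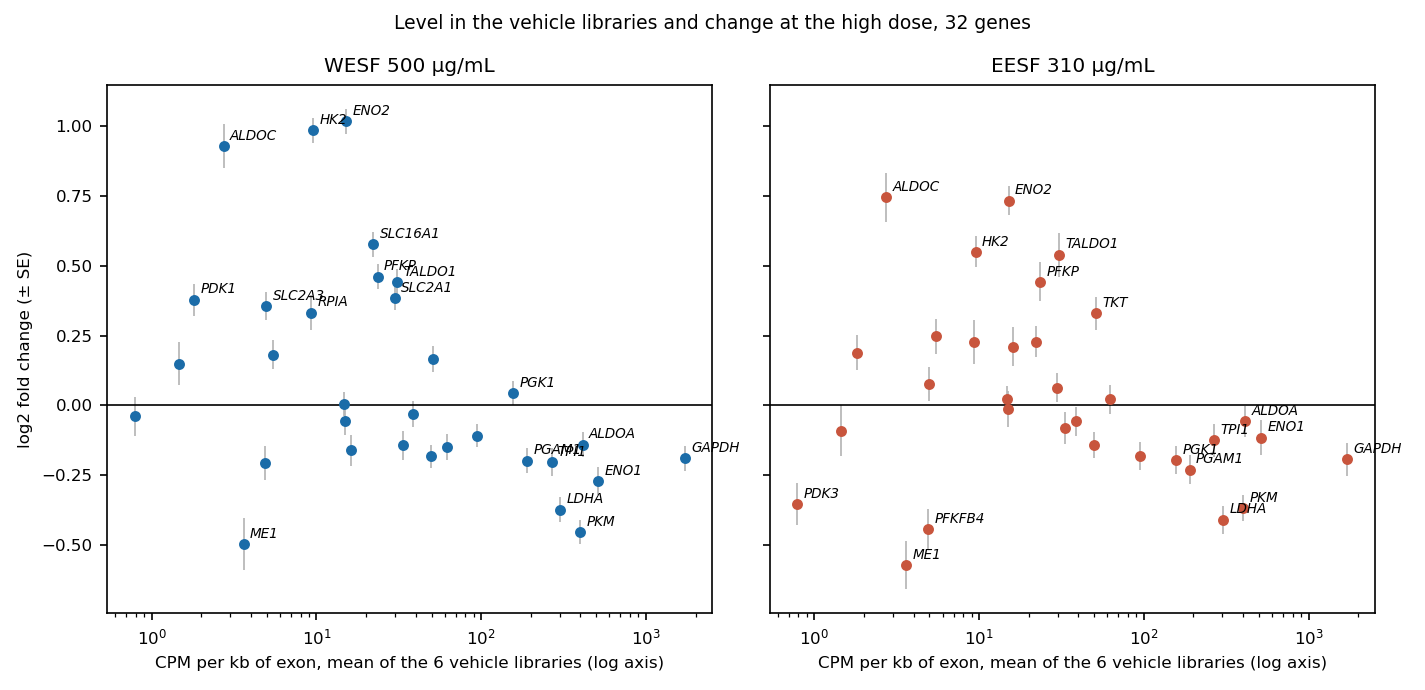
Level in the vehicles (horizontal log axis, CPM per kb of exon, mean of 6 libraries) and log2 fold change at the high dose (vertical axis, ± SE) of the 32 genes with WESF (left) and EESF (right); genes above 100 CPM per kb or with a log2 fold change beyond 0.3 are named. GAPDH, ENO1, ALDOA, PKM and LDHA at the right lie below 0 with both extracts, and the rises lie further to the left, beside ME1 and PFKFB4, which fell.

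The lower doses moved few of the genes. At the medium dose of WESF, HK2, PFKP, ALDOC, ENO2 and TKT rose, 5 of 32 where 1.89% of the 13112 genes tested rose, and none fell; 0 of 32 were DEGs, against 0.275% of genes tested, while 11 of 32 had an unadjusted p under 0.05, as did 21% of genes tested, and DESeq2 called 6 of 32 and 476 genes in all. Whether they passed depended on which libraries were used, since 0 of 32 passed without replicate 2 of vehicle A or without replicate 2 or 3 of the medium dose, 3 passed without replicate 3 and 8 without replicate 1 of vehicle A. The log2 fold changes moved less in these fits, between 0.192 and 0.222 for HK2, 0.217 and 0.256 for ENO2 and 0.377 and 0.444 for ALDOC. At the medium dose of EESF, ALDOC, ENO2 and PGLS rose, 3 of 32 against 6.9% of the 12978 genes tested. Each held in every alternative tried, and 0 of 32 were DEGs, against 0.755%, with 5 of 32 at an unadjusted p under 0.05, as were 30.4% of genes tested, and 3 of 32 and 1557 genes in all called by DESeq2. The low dose of EESF gave the fall of HK2 and the rise of PGLS, 2 of 32 against 9.35% of the 12892 genes tested, and 0 DEGs against 0.271%. Without replicate 1 of vehicle B 4 of 32 passed, without replicate 3 of the low dose 1, and without any other library 0. At the low dose of WESF 0 of 32 passed, as did 0% of the 13131 genes tested. There 2 of 32 (PFKL and ENO2) had an unadjusted p under 0.05, as did 470 genes in all, and DESeq2 called 0 of 32 and 1 gene in all.

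WESF and EESF were set against each other at the high doses with an interaction term in 12 libraries, in which extract, numeric dose and batch cannot be told apart. The log2 fold change was lower with EESF for SLC2A1 (EESF minus WESF -0.32 ± 0.0653 on the log2 scale, edgeR adjusted p = 0.00267), SLC2A3 (-0.28 ± 0.0734), HK2 (-0.43 ± 0.0642, adjusted p = 0.000281), ENO2 (-0.28 ± 0.0609) and SLC16A1 (-0.35 ± 0.0703). It was also lower for PGK1 (-0.24 ± 0.0625) and PDK3 (-0.31 ± 0.0899), and higher for PGLS (0.37 ± 0.0916, adjusted p = 0.00792). The 8 calls among 32 are close to the 26% of the 13376 genes tested that differed, and 0 of the 8 passed the fold threshold, against 3.88%. The call of PDK3 (adjusted p = 0.0185) was lost with DESeq2, with counts thinned to equal depth and with the replicate number as a block. For the other 24 genes the difference did not pass the test, with values between -0.24 (PFKFB2, SE 0.124) and 0.17 (PGD, SE 0.0689), which does not show that the extracts acted alike on them.

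**Figure D4:**
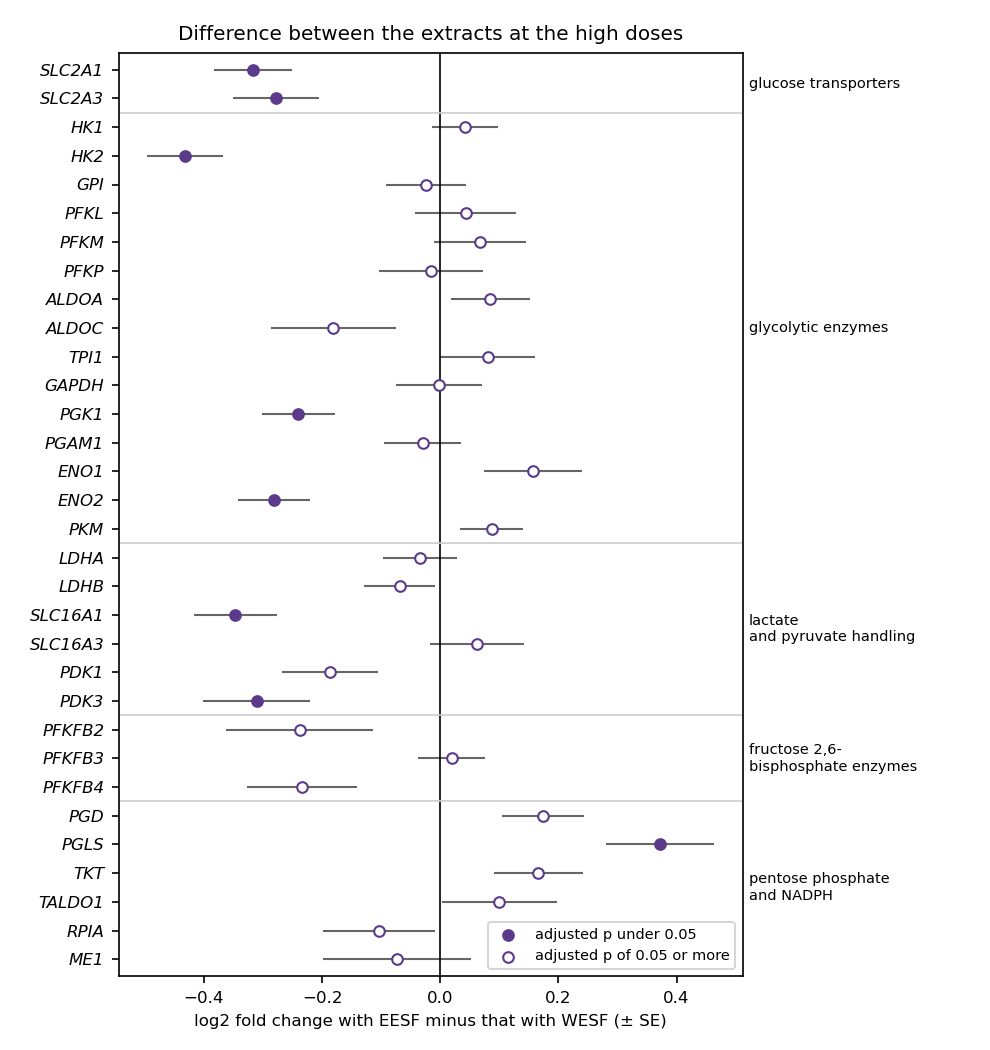
Difference between the extracts at the high doses (horizontal axis, log2 fold change with EESF minus that with WESF, ± SE) for each of the 32 genes (rows, grouped by role); filled points have an adjusted p under 0.05. Of the 8 filled points, 7 lie to the left of 0, with HK2 the farthest at -0.43, and PGLS at 0.37 lies to the right.

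Between vehicle B and vehicle A, the log2 differences of the 32 genes ran from -0.11 (ALDOC) to 0.09 (RPIA), 0 of 32 passed and 0% of the 13001 genes tested did. None of the 32 and 371 genes in all had an unadjusted p under 0.05, and DESeq2 called 0 of the 32 and 3 genes in all. Vehicle libraries with the same replicate number resembled each other, each library of vehicle A having its lowest chi-square per degree of freedom against its own number in vehicle B (3.24 to 3.51, against 4.16 or more for other numbers). With the replicate number as a block, 5 of the 32 and 3.68% of genes tested passed. In that blocked fit ENO1 (-0.063 ± 0.00358, edgeR adjusted p = 1.85e-13), GAPDH (-0.028) and ALDOA (-0.027) were lower in vehicle B, and PKM (0.022) and LDHA (0.026) higher, all on the log2 scale. Its SEs were very small (0.00198 for GAPDH), although even vehicle libraries with the same number had chi-square values of 3.24 or more per degree of freedom. The p-values of the blocked fit are therefore not read as a difference between the vehicles.

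Other genes of sugar metabolism were counted from lists of symbols around the 32. Their counts stand beside 34.3% of all genes tested that rose and 34.6% that fell with WESF, and 29.3% and 28.7% with EESF. Of the other sugar and monocarboxylate transporters, 10 of 18 were tested at each high dose, with 2 up and 4 down for WESF and 3 up and 5 down for EESF (medians -0.08 and -0.3). SLC2A6, a lysosomal hexose carrier, fell by 1.55 ± 0.0906 and 0.59 ± 0.0759 on the log2 scale and SLC2A12 (GLUT12) by 0.99 ± 0.132 and 1.06 ± 0.15, while SLC2A10 (GLUT10) rose by 0.67 ± 0.0611 and 0.45 ± 0.0898. Of the other glycolytic isozymes and regulators, 10 of 20 were tested, 4 up and 2 down with each extract (medians 0.27 and 0.188). ENO3, the muscle enolase, rose by 0.95 ± 0.213 and 0.88 ± 0.236, and GCKR, the glucokinase regulatory protein, by 1.59 ± 0.225 and 1.36 ± 0.27, from vehicle means of 1.22 and 1.3 CPM for ENO3 and 0.759 and 0.802 CPM for GCKR. In the wider pentose phosphate and NADPH list (13 of 15 tested), 6 rose and 4 fell with WESF and 5 rose and 2 fell with EESF (medians 0.005 and 0.115). IDH1, cytosolic isocitrate dehydrogenase and another source of NADPH, fell by 0.70 ± 0.0562 and 0.65 ± 0.0577.

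Of the genes of gluconeogenesis and pyruvate entry 14 of 18 were tested, with 5 up and 6 down for WESF and 5 up and 2 down for EESF (medians 0.032 and 0.026). PDK4, a kinase of pyruvate dehydrogenase that responds to fasting, went from 0.864 ± 0.286 to 6.27 ± 1.29 CPM with WESF and from 0.744 ± 0.251 to 2.38 ± 0.23 with EESF, and PCK2, mitochondrial phosphoenolpyruvate carboxykinase, rose by 1.17 ± 0.0737 and 0.84 ± 0.0831 on the log2 scale. PC, pyruvate carboxylase, fell by 0.82 ± 0.0618 and 0.53 ± 0.0728. Of the glycogen, hexosamine, polyol and glucuronate genes 21 of 22 were tested, with 9 up and 8 down for WESF and 6 up and 8 down for EESF (medians -0.005 and 0.032). In the hexosamine branch, which makes UDP-N-acetylglucosamine from fructose 6-phosphate, UAP1 rose by 1.36 ± 0.0439 and 0.98 ± 0.0574, PGM3 by 1.02 ± 0.0417 and 0.65 ± 0.0522, and GFPT1, its first enzyme, by 1.295 ± 0.0473 and 0.56 ± 0.0577. GYS1, the glycogen synthase of muscle and most other tissues, named after its values were seen, fell by 0.71 ± 0.0458 and 0.47 ± 0.0487.

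Among 17 regulators that sense glucose or oxygen, 11 rose and 3 fell with WESF and 7 rose and 3 fell with EESF (medians 0.215 and 0.057), beside the shares of all genes given above. TXNIP, which restrains glucose uptake, went from 10.2 ± 0.285 CPM in vehicle A to 358.8 ± 4.38 CPM with WESF and from 10.7 ± 0.662 CPM in vehicle B to 302.0 ± 9.18 CPM with EESF (log2 fold changes 5.14 ± 0.054 and 4.82 ± 0.0661). Its relative ARRDC4 rose by 2.71 ± 0.0875 and 2.38 ± 0.0842. MLXIPL (ChREBP), a transcription factor that responds to sugar phosphates, passed the filter on low counts only where a high dose was in the fit, so that its call, counted above, is no support for a rise. It was at 0.147 ± 0.0696 and 1.07 ± 0.21 CPM for vehicle A and WESF and 0.263 ± 0.134 and 0.969 ± 0.17 CPM for vehicle B and EESF. Of 15 hypoxia targets outside glycolysis, 11 rose and 1 fell with WESF and 6 rose and 5 fell with EESF, with medians of 0.44 and 0.101. When the extracts were tested against each other, 10 of the 15 were lower with EESF and 0 were higher, where 26% of all genes tested differed in either direction. VEGFA, the vascular growth factor, rose by 1.145 ± 0.0432 and 0.80 ± 0.0505, and NDRG1 by 1.74 ± 0.0446 and 1.16 ± 0.0581. The medians of all genes tested, 0.001 and 0.007, stand beside these.

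Reads of near-identical copies bear on some of the 32. GAPDH has 65 annotated pseudogenes in the table, PGAM1 13 and LDHA 6, but their summed counts were at most 1.53% of the parent gene's (SLC2A3), and adding them changed no call. Exons of PFKFB4 overlap UCN2 on the same strand and those of PGK1 overlap ATP7A and the pseudogene C4orf46P2, while PFKM, GAPDH, SLC16A1, SLC16A3, PFKFB2, TPI1, PGLS and PDK1 overlap a gene on the opposite strand whose median count was above 2. Libraries were made with a directional kit, but the strand setting of the counting is not given in the sources used here, so reads of these pairs may be divided between them.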

How the data were processed

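RNA of SW1783 cells was sequenced in 24 libraries from 8 groups. Expected counts per Ensembl gene, not normalized, were deposited by the authors, who per the labels and methods trimmed reads with Trim Galore 0.6.6, aligned them to GRCh38 with STAR 2.7.9a and counted them with RSEM 1.3.3. The values were rounded, and 10.9% had not been whole. Protein-coding genes (GENCODE 44) that passed filterByExpr were fitted with edgeR 4.0.16 in R 4.3.3 (TMM scaling, quasi-likelihood test, Benjamini-Hochberg adjustment over all genes tested), each dose with the vehicle of its batch in 6 libraries. Rises and falls have an adjusted p under 0.05, and DEGs also a fold above 1.5, the thresholds of the study, which used DESeq2. The extracts were compared at their high doses by an interaction term in 12 libraries. CPM values were scaled over all 24 libraries. The fits were tested on simulated data.

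The genes and lists were chosen with earlier results of these data known. Values in every library are given for HK2, ENO2, ALDOC, PFKP, TKT and PGLS and for a few genes named after their values were seen (SLC2A1, GAPDH, LDHA, SLC16A1), and other lists name at most 4 DEGs with the largest changes, of which some are shown. Library totals of 18727797 to 32567395 set the precision of low values. Replicates differed by more than counting noise (chi-square values divided by their degrees of freedom were 2 or more). Alternatives were DESeq2 1.42.0 (test and size factors), library totals alone, no filter, all genes, all groups in a single fit, thinned counts, added pseudogene counts, the replicate block and leaving out each library.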

Additional observations from a re-analysis of the deposited data

Results flagged for a closer look

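The response at the high dose differed between the extracts for 8 of the 32 genes, by the interaction term of edgeR's quasi-likelihood fit, close to the 26% of all genes tested that differed. The log2 fold change with EESF minus that with WESF was -0.432 for HK2, -0.347 for SLC16A1, -0.317 for SLC2A1, -0.311 for PDK3, -0.282 for ENO2, -0.278 for SLC2A3, -0.24 for PGK1 and 0.372 for PGLS. The call of PDK3 was lost with DESeq2, with thinned counts and with the replicate number as a block. Extract, dose (500 against 310 µg/mL) and batch cannot be told apart in these differences.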

How the results depend on the processing

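Calls at the medium dose of WESF and the low dose of EESF depended on which libraries were used, while all 3 at the medium dose of EESF held in every alternative. The number of the 32 genes that passed at the medium dose of WESF was 5, was 2 with the replicate number as a block, and ran from 0 to 8 with 1 library left out. At the low dose of EESF it was 2 and ran from 0 to 4 with 1 library left out. Between the vehicles 0 passed, and 5 with the replicate number as a block, with differences of at most 0.063 in size, an alternative chosen after seeing the data. The cause was not tested. At the high doses the number ran from 22 to 27 for WESF and from 17 to 20 for EESF with 1 library left out. No called gene changed direction. Among genes that did not pass, PFKFB3 with WESF was at -0.001 with library totals alone, at -0.014 with thinned counts and between -0.013 and 0.022 with 1 library left out, PFKL with EESF was between -0.051 and 0.050, and PGD with EESF between -0.009 and 0.062. Treated and vehicle libraries with the same replicate number did not deviate together (correlations from -0.077 to 0.08), and between the vehicles the correlations were 0.13, 0.03 and 0.042, not all over 0.1, although the chi-square values were lowest for the same number. The main fits above did not take the numbers as pairs because the methods of the study use no such block.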
